A study of Mus musculus with 8 samples.

Results

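The killer cell lectin-like receptors Klrg1, Klrd1, Klrk1 and Klrc1 are surface receptors of natural killer (NK) cells and of effector T cells. The receptors were chosen with earlier results of these data known, and their probes by gene symbol alone, on an Illumina mouse bead array. Of 23978 probes with a gene symbol, 6 belonged to these genes: 1 for Klrg1, 1 for Klrd1, 4 for Klrk1 and 0 for Klrc1. Klrc1 was therefore not analysed here, and 3 of the 4 genes were followed over 8 arrays.

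The arrays held RNA of CD4 T cells sorted from C57B6 mice of mixed sex, 7 to 14 weeks old, all of which carried the FOXP3GFP reporter. Regulatory T cells (Treg) were the GFP-positive and conventional T cells (Tcon) the GFP-negative cells of a live TCRb+CD4+CD8-B220- gate. The genotype called K14 was K14Aβb, FOXP3GFP, without MHC class II outside the thymus, and the control genotype was MHCII+/-, FOXP3GFP. The keratin 14 promoter, as background, drives the class II beta chain in thymic epithelium of such mice, so that CD4 T cells are still selected there. Cells came from the small intestine, called gut here, or from the spleen. Each of the 8 combinations of cell type, genotype and tissue was 1 array of RNA pooled from several mice. No combination had a replicate, so a p-value reflects how far these arrays spread and not biological replicates.

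KLRG1 is an inhibitory receptor that binds cadherins, among them E-cadherin, and it is known as a mark of strongly differentiated effector T cells, NK cells and effector Treg. CD94, the product of Klrd1, has no signalling tail of its own. It pairs with NKG2A, the product of Klrc1, into an inhibitory receptor for a non-classical MHC class I molecule, or with NKG2C and NKG2E into activating ones. NKG2D, the product of Klrk1, is an activating receptor for MHC-like stress ligands and signals through the adaptor encoded by Hcst and, in mice, also that encoded by Tyrobp. All 4 genes lie on chromosome 6. In RefSeq's gene order Klrd1, Klrk1, Klrc3, Klrc2 and Klrc1 follow each other, and Klrg1 stands apart from them between Mug2 and M6pr.

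Promoter windows in RefSeq's GRCm38.p6 annotation, from 250 bases before a gene's start to 50 bases after it, were at hand for 2 of the 4 genes, Klrk1 and Klrc1. They are shown because both belong to the gene cluster of Klrd1, whose signal differed most clearly in the direction opposite to Klrg1. The Klrk1 window lies at chr6:129623815-129624114 and the Klrc1 window at chr6:129678924-129679223, both on the minus strand, and capitals mark matches to the motifs named after them.
Klrk1: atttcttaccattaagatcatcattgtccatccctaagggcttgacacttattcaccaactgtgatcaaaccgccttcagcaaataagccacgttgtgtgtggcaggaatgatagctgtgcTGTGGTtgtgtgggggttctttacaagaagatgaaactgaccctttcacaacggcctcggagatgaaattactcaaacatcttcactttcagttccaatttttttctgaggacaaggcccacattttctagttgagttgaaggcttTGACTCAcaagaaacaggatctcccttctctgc
Klrc1: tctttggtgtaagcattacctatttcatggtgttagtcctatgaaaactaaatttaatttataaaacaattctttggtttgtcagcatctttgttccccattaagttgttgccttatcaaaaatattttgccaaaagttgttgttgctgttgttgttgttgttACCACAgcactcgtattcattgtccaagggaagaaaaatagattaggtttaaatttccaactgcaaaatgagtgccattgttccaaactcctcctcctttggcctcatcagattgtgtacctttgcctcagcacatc
The 6 motifs searched on both strands were the T-box core AGGTGT, the Runx core TGTGGT, the AP-1 site TGANTCA, the forkhead core TGTTTAC, the STAT site TTCNNNGAA and the GATA core AGATAA. The Klrk1 window held a Runx core from base 122 and an AP-1 site from base 268, counted from the window's 5′ end, and the matches do not overlap. The Klrc1 window held a Runx core on the opposite strand from base 164. Of 32851 windows of this length in RefSeq, 16.8% held the Runx core, 7.81% the AP-1 site, 13.7% the T-box core, 3.65% the forkhead core, 8.30% the STAT site and 11.2% the GATA core. A match describes letters in a window and is no evidence of binding.

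Between 8822 and 9677 of the 25697 probes were above background per array, meaning a detection p under 0.05, and median signals were 211.4 to 250.2 intensity units. All 6 measured CD4 T cell markers were above background on every array. The Cd4 probe itself was dim, at 340.5 to 474.2 units, and the others, Cd3e, Cd3d, Cd3g, Lat and Cd5, mark T cells in general. The Treg markers Il2ra and Ikzf2 were above background on all 4 Treg arrays and on no Tcon array, while the Foxp3 probe read near background everywhere and does not check the sort. Ctla4, the other Treg marker, was above background on all 8 arrays, at 14032.8 to 66352.8 units in Treg and 707.8 to 38057.2 in Tcon, with both gut Tcon arrays above both spleen Treg arrays. H2-Ab1, the class II beta chain gene, was not lower on the arrays labelled K14 (log2 difference 1.12 ± 0.43, SE, 4 pairs, limma adjusted p = 0.602). Where its probes lie within the altered gene is not known here, so every direction between genotypes rests on the labels. The gut control Tcon array stood apart. All 7 measured exocrine pancreas markers were above background on it, with a summed intensity of 11288.3, against 0 to 2 markers and sums of 1531.3 to 1971.2 on the other arrays. It also had 5 of 6 gut epithelial markers above background, with a sum of 5046.7, against 1 to 2 markers and sums of 1139.8 to 3278.4 elsewhere.

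Klrg1 was bright on every Treg array and dim on every Tcon array. Its intensity in Treg was 27307.1 units in gut K14, 10662.8 in gut control, 6095.6 in K14 spleen and 4112.3 in control spleen. In Tcon it was 462.7 units in gut K14, 280.7 in gut control, 324.9 in K14 spleen and 459 in control spleen. The 4 Treg arrays all lay above the 4 Tcon arrays, and the gut control Tcon array was the only array on which Klrg1 was not above background. After background correction and quantile normalization, the log2 signal averaged 13.12 ± 1.21 in Treg and 7.57 ± 0.78 in Tcon (SD, n = 4 each).

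The difference, Treg minus Tcon, was 5.55 ± 0.55 on the log2 scale (SE, 4 pairs matched for tissue and genotype, limma adjusted p = 0.0405, with an interval of 4.16 to 6.94 at 95% confidence). It corresponds to a 46.8-fold ratio of geometric means. SE, interval and p-value come from limma's moderated variance, which borrows from all genes and is not the spread of the 4 pairs alone. In RNA of bulk cells, a larger share of positive cells and more RNA per cell cannot be told apart. Among the 7916 genes tested, it ranked 2 by size of increase. In the 4 pairs it was 6.44 (gut K14), 6.71 (gut control), 5.39 (spleen K14) and 3.65 (spleen control). In the spleen control pair, which had the smallest difference, the Treg array was the dimmest of its kind. With a pair left out, the call was lost in each case, at 5.25 without gut K14 (adjusted p = 0.112), 5.16 without gut control (adjusted p = 0.172), 5.60 without spleen K14 (adjusted p = 0.147) and 6.18 without spleen control (adjusted p = 0.181). With any pair left out limma called 0 of all 7916 genes, so this loss is not particular to Klrg1.

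Klrd1 had the opposite pattern. In Treg it read 305.4 units in gut K14, 183.5 in gut control, 427 in K14 spleen and 268.7 in control spleen, and only the spleen K14 reading was above background. In Tcon it read 3495.9 units in gut K14, 654.7 in gut control, 2100.3 in K14 spleen and 3103.4 in control spleen, all above background. The groups did not overlap, although the gut control Tcon array was close to the brightest Treg array. The log2 signal averaged 6.62 ± 1.23 in Treg and 10.77 ± 1.37 in Tcon (SD, n = 4 each).

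Treg minus Tcon, Klrd1 fell by 4.15 ± 0.49 on the log2 scale (SE, 4 pairs, limma adjusted p = 0.0495, interval -5.40 to -2.90). The pairs stood at -5.25 (gut K14), -3.42 (gut control), -2.78 (spleen K14) and -5.15 (spleen control). Since 3 of the 4 Treg readings were not above background, part of the difference is set by the background. With each low reading raised to the lowest signal above background on its array, the difference was -3.67 (adjusted p = 0.0786). This call too was lost with any pair left out, at -3.78 without gut K14 (adjusted p = 0.121), -4.39 without gut control (adjusted p = 0.198), -4.60 without spleen K14 (adjusted p = 0.134) and -3.82 without spleen control (adjusted p = 0.227). The loss is not particular to Klrd1, since limma then called 0 of all 7916 genes. With the authors' log2 values the Klrd1 difference was -2.44 (adjusted p = 0.0638).

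Klrk1, measured by its brightest probe, was above background on 3 Tcon arrays and on no Treg array. It read 176.1 units in gut K14, 190.8 in gut control, 216.4 in K14 spleen and 228.2 in control spleen Treg. In Tcon it read 427.3 units in gut K14, 193 in gut control, 336.1 in K14 spleen and 406 in control spleen. The gut control Tcon reading, not above background, lay among those of Treg, so the groups overlapped. The other 3 Klrk1 probes were above background on no array, with intensities of 181.1 to 269.9, and show no difference that could be measured.

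For that brightest probe the log2 signal averaged 5.64 ± 0.31 in Treg and 7.21 ± 1.16 in Tcon (SD, n = 4 each). The Klrk1 difference was -1.57 ± 0.44 (SE, 4 pairs, limma adjusted p = 0.209, unadjusted p = 0.0156, interval -2.70 to -0.44) and did not pass the test. No Treg array measured the gene. With the Treg readings raised to the lowest signal above background, Tcon over Treg averaged 1.39-fold. This is no strict bound, since the gut control Tcon reading was not above background either. As read, the Klrk1 pairs stood at -2.68 (gut K14), -0.08 (gut control), -1.52 (spleen K14) and -2.01 (spleen control). Without the gut control pair the difference was -2.07 (adjusted p = 0.210).

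**Figure D1:**
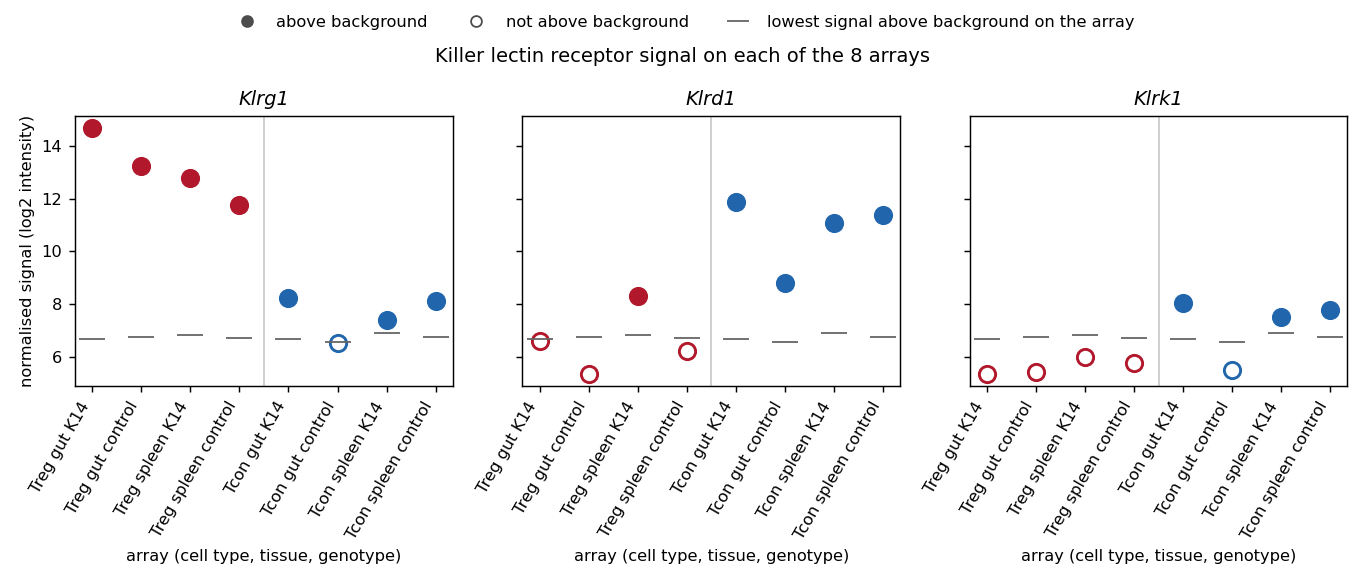
Normalised log2 signal (y axis) of Klrg1, Klrd1 and the brightest Klrk1 probe on each of the 8 arrays (x axis), Treg in red left of Tcon in blue. Filled points were above background, open points were not, and a grey dash marks the lowest signal above background on that array. Klrg1 lies higher on all 4 Treg arrays, Klrd1 lies lower on them, and the gut control Tcon array is the lowest of its group for all 3 genes.

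Of the 3 receptor genes tested, 1 was called higher in Treg, where limma called 0.556% of all 7916 genes, and 1 was called lower, where it called 0.152%, and 1209 genes had an unadjusted p under 0.05. Non-overlap of the 4 Treg and 4 Tcon arrays was more common. It held for 3.7% of all genes with Treg above and for 3.2% with Treg below, and for Klrg1 and Klrd1 among the receptors. The median difference of all genes was -0.03.

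**Figure D2:**
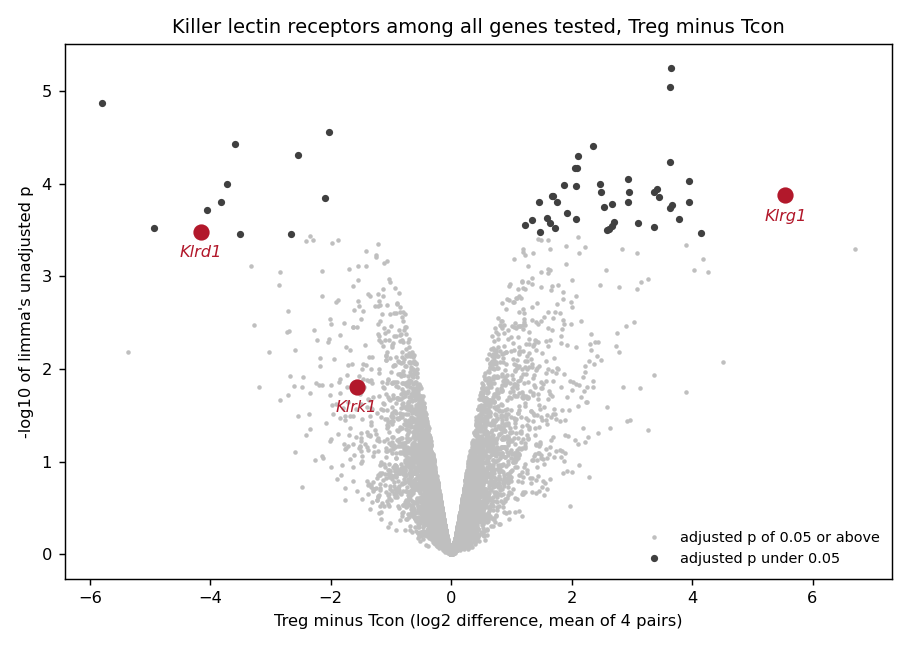
Treg minus Tcon log2 difference (x axis, mean of 4 pairs) against the negative log10 of limma's unadjusted p (y axis) for all 7916 genes tested, with dark points for an adjusted p under 0.05 and red points for the receptors. Klrg1 stands at 5.55 and Klrd1 at -4.15 among the dark points, and Klrk1 at -1.57 among the grey ones.

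Within tissues, Klrg1 differed between Treg and Tcon by 6.58 ± 0.48 in gut (mean of 2 pairs, SE pooled over all 4 pairs, limma adjusted p = 0.103) and by 4.52 ± 0.48 in spleen (adjusted p = 0.121). The SE is therefore the same in both tissues and does not give the spread within either. The gut minus spleen contrast of these differences was 2.06 ± 0.68 (adjusted p = 0.648, unadjusted p = 0.0367), so a larger difference in gut was not shown. Klrd1 differed by -4.33 ± 0.76 in gut (adjusted p = 0.182) and by -3.97 ± 0.76 in spleen (adjusted p = 0.216). Neither gut Treg array measured Klrd1. With both at the lowest signal above background, Tcon over Treg in gut was at least 12.3-fold as a mean of 2 pairs. This bound does not hold for each pair, since the gut control pair as read stood at -3.42, or 10.7-fold. The contrast between tissues was -0.37 ± 1.08 (adjusted p = 0.976, interval -3.33 to 2.59), and it took the other sign under several settings. Klrk1 differed by -1.38 ± 0.68 in gut and by -1.77 ± 0.68 in spleen, where the bound, as a mean of 2 pairs, was at least 1.85-fold. The Klrk1 contrast between tissues was 0.39 ± 0.97 (adjusted p = 0.965). Over all genes, limma called 0% in gut, 0% in spleen and 0% for the contrast, with 998, 903 and 576 genes at an unadjusted p under 0.05.

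K14 and control arrays were compared to ask whether receptor levels differ in cells of mice without peripheral MHC class II. Klrg1 averaged a log2 signal of 10.78 on K14 arrays and 9.91 on control arrays, a difference of 0.87 ± 0.43 (SE, 4 pairs matched for tissue and cell type, limma adjusted p = 0.672, interval -0.22 to 1.96). It was 1.43 in gut Treg, 1.04 in spleen Treg, 1.70 in gut Tcon and -0.69 in spleen Tcon. Klrd1 averaged 9.47 on K14 arrays and 7.93 on control arrays, a difference of 1.53 ± 0.56 (adjusted p = 0.585, unadjusted p = 0.0389). Its pairs stood at 1.25 in gut Treg, 2.07 in spleen Treg, 3.09 in gut Tcon and -0.29 in spleen Tcon. The gut Treg value is between readings that were both not above background, and the spleen Treg value is against such a reading, so neither is an exact size. With low readings raised to the lowest signal above background, the mean was 1.07 (adjusted p = 0.698). Klrk1 averaged 6.73 on K14 arrays and 6.12 on control arrays, a difference of 0.60 ± 0.51 (adjusted p = 0.811), with pairs at -0.07 in gut Treg, 0.22 in spleen Treg, 2.53 in gut Tcon and -0.26 in spleen Tcon. For Klrk1 both Treg values lie between readings not above background. The gut Tcon values of Klrg1 and Klrk1 are against such a reading, so none of these is an exact size.

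For all 3 receptors the spleen Tcon pair was negative and the gut Tcon pair was the highest. The gut Tcon pair contains the control array with the pancreas and epithelial markers, whose part in the difference was not tested. Without that pair the differences were 0.59 for Klrg1 (limma adjusted p = 0.883), 1.01 for Klrd1 (adjusted p = 0.777) and -0.04 for Klrk1 (adjusted p = 0.990). Some markers of other cells read higher on K14 arrays, though none passed the test. Summed intensities of the 4 measured B cell markers, K14 against control, were 7977.4 against 4874.2 in gut Treg, 14701.7 against 6505.6 in spleen Treg, 2158.4 against 1662.1 in gut Tcon and 8187.1 against 3374.9 in spleen Tcon. Most of each sum came from Cd79b alone (K14 minus control 1.35 ± 0.23, SE, 4 pairs, limma adjusted p = 0.332), and Pax5 was above background on no array. The 6 tested myeloid markers had a median difference of 1.59. The spleen K14 Treg array, the only Treg array with Klrd1 above background, had 3 B cell, 5 myeloid and 2 NK markers above background, the most among Treg arrays, and their part in the receptor values was not tested. Of the 3 receptors 0 passed between genotypes, and limma called 0% of all genes, with 634 at an unadjusted p under 0.05.

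Within Treg, K14 minus control was 1.24 ± 0.63 for Klrg1 (mean of 2 pairs, SE pooled over both cell types, limma adjusted p = 0.844), 1.66 ± 0.87 for Klrd1 (adjusted p = 0.851) and 0.08 ± 0.72 for Klrk1, which no Treg array measured. Klrd1 was above background on 1 of the 2 K14 Treg arrays and on neither control Treg array, so this value rests on 1 reading above background. Within Tcon it was 0.50 ± 0.63 for Klrg1 (adjusted p = 0.933), 1.40 ± 0.87 for Klrd1 and 1.13 ± 0.72 for Klrk1 (adjusted p = 0.882 for both). The contrast of genotype differences, Treg minus Tcon, was 0.73 ± 0.89 for Klrg1 (interval -1.69 to 3.15), 0.27 ± 1.24 for Klrd1 and -1.06 ± 1.02 for Klrk1. For Klrd1 its sign turned in 6 of 12 alternative settings. No receptor passed, and limma called 0% of genes in Treg, 0% in Tcon and 0% for the contrast, with 499, 492 and 386 genes at an unadjusted p under 0.05.

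Between gut and spleen, no receptor passed the test, while limma called 2.37% of all genes. Klrg1 averaged 10.67 in gut and 10.02 in spleen, a difference of 0.65 ± 0.61 (SE, 4 pairs matched for cell type and genotype, adjusted p = 0.555). Its pairs stood at 1.87 in K14 Treg, 1.48 in control Treg, 0.81 in K14 Tcon and -1.58 in control Tcon. Klrd1 averaged 8.16 in gut and 9.24 in spleen, a difference of -1.08 ± 0.56 (adjusted p = 0.314). Its pairs stood at -1.67 in K14 Treg, -0.85 in control Treg, 0.79 in K14 Tcon and -2.58 in control Tcon. Neither gut Treg reading of Klrd1 was above background, nor was the spleen control Treg reading, so the Treg values are no exact sizes, and the mean was -0.85 with low readings raised (adjusted p = 0.437). Klrk1 averaged 6.08 in gut and 6.77 in spleen, a difference of -0.70 ± 0.47 (adjusted p = 0.413), and its largest pair difference was -2.29 in control Tcon. The gut control Tcon readings of Klrg1 and Klrk1 were not above background, so their control Tcon values are no exact sizes either.

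The control Tcon pair, which holds the array with pancreas and epithelial markers, was the lowest for all 3 genes. Without it the gut minus spleen difference was 1.39 for Klrg1 (limma adjusted p = 0.164), -0.58 for Klrd1 (adjusted p = 0.609) and -0.17 for Klrk1 (adjusted p = 0.809). Within Treg the difference was 1.68 ± 0.63 for Klrg1 (mean of 2 pairs, SE pooled over both cell types, adjusted p = 0.331, interval -0.04 to 3.39), -1.26 ± 0.87 for Klrd1 (adjusted p = 0.538) and -0.51 ± 0.72 for Klrk1, which no Treg array measured. Within Tcon it was -0.38 ± 0.63 for Klrg1, -0.89 ± 0.87 for Klrd1 and -0.89 ± 0.72 for Klrk1. Again no receptor passed, where limma called 0% of genes within Treg, with 1224 at an unadjusted p under 0.05, and 0.455% within Tcon. Tissue and cell preparation cannot be told apart.

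**Figure D3:**
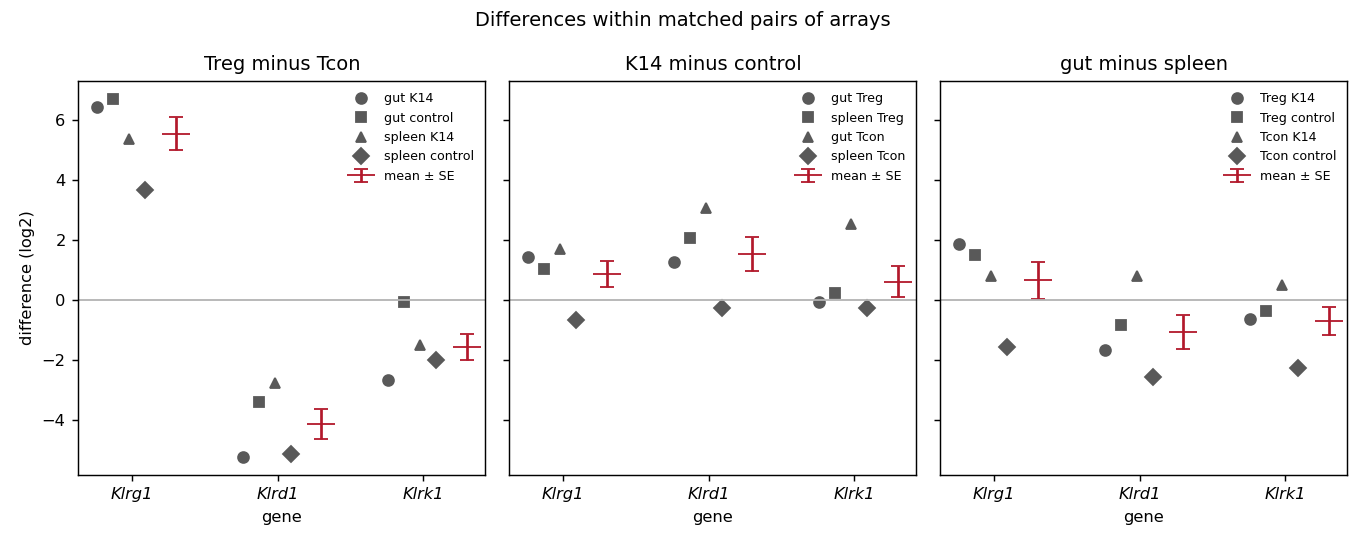
Log2 differences (y axis) of Klrg1, Klrd1 and Klrk1 (x axis) within each matched pair of arrays, in grey, with the mean of 4 pairs and its SE in red, for Treg minus Tcon, K14 minus control and gut minus spleen. Klrg1 lies above 0 and Klrd1 below 0 in all 4 pairs of Treg minus Tcon, and the pairs of the other comparisons lie on both sides of 0 for each gene.

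The order of the 8 arrays was clearest for Klrg1. From high to low it ran gut K14, gut control, spleen K14 and spleen control Treg, then gut K14, spleen control, spleen K14 and gut control Tcon. The step of 3.53 log2 between spleen control Treg and gut K14 Tcon exceeded the residual SD of 0.98 from additive terms for cell type, genotype and tissue. The steps of 1.43 between both gut Treg arrays and of 1.04 between both spleen Treg arrays were slightly above it, and the other steps were below it. For Klrd1 the order was gut K14, spleen control, spleen K14 and gut control Tcon, then spleen K14, gut K14, spleen control and gut control Treg. Its steps of 2.29 above gut control Tcon and of 1.67 below spleen K14 Treg exceeded the residual SD of 0.88, and the step of 0.49 between Tcon and Treg did not. For Klrk1 only the step of 1.52 below spleen K14 Tcon exceeded the residual SD of 0.81.

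Across the 8 arrays, Klrd1 and Klrk1 correlated at r = 0.916, Klrg1 and Klrd1 at -0.785 and Klrg1 and Klrk1 at -0.625. These values describe 8 arrays that share the split into Treg and Tcon. Klrk1 was above background on 3 of them, Klrd1 on 5 and Klrg1 on 7, so part of each r rests on readings near background. Among 2209 genes whose log2 signal spanned at least 2, those most like Klrg1 were Tnfrsf9 at r = 0.991, a costimulatory receptor, Nid2 at 0.989, a basement membrane protein, Dgat2 at 0.974, an enzyme of triglyceride synthesis, Ky at 0.968, and Tnfrsf18 at 0.963, the costimulatory receptor GITR. Those most like Klrd1 were Aqp9 at 0.961, a water and glycerol channel, Kcnmb4 at 0.958, a potassium channel subunit, Garnl3 at 0.930, Pdlim4 at 0.924, an actin-binding adaptor, and Klrk1 itself. Of these genes, Nid2, Dgat2 and Ky were above background on 4 arrays, Aqp9 on 5, Garnl3 on 3 and Pdlim4 on 6. Treg minus Tcon, Ky stood at 6.70 (limma adjusted p = 0.0553) and Kcnmb4 at -1.41 (adjusted p = 0.0562), and neither passed.

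Apart from the receptors themselves, the measured neighbours on chromosome 6 did not pass the test between Treg and Tcon. Beside Klrg1, M6pr, a sorting receptor for lysosomal enzymes, stood at 0.27 ± 0.19 (SE, 4 pairs, limma adjusted p = 0.554) and Phc1, a Polycomb protein, at 0.50 ± 0.33 (adjusted p = 0.532). Beside Klrd1, Gabarapl1, an autophagy protein, stood at 1.18 ± 0.18 (adjusted p = 0.0830), of the opposite sign to Klrd1. Of the lectin receptors next to it, Klre1 was above background on 1 array, and Klrc3 on none. Klri1, next to Klrc1, stood at -0.08 ± 0.18 (adjusted p = 0.876). Klrc2 has no named probe here and was not analysed.

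Among 39 listed relatives of these receptors, 26 had a probe and 8 were tested, being above background on at least 2 arrays. Between Treg and Tcon, 3 of these were higher and 5 lower, with a median of -0.09, and 0 passed by limma. Klrb1c, which encodes a lectin-like antigen of NK cells, read 387.4 to 567 units in Treg and 645.7 to 1105.1 in Tcon, without overlap, as held for 3.2% of all genes with Treg below. The Klrb1c difference was -1.36 ± 0.32 (SE, 4 pairs, adjusted p = 0.167). Klrb1f, above background on 0 Treg and 2 Tcon arrays, stood at -0.75. Klra4, an inhibitory Ly49 receptor above background on 1 Treg and 1 Tcon array, stood at -0.36. Neither value is an exact size. Cd69, an early activation antigen, stood at 0.23. Between gut and spleen, 1 of the 8 passed: Cd69 rose by 1.73 ± 0.18 (adjusted p = 0.0248), with gut readings of 60722.3 to 68503.8 units close to the highest signals of the arrays. Of all genes, limma called 1.62% higher in gut.

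The NK marker list bears on the cell type that Klrd1 and Klrk1 are best known from. Of its 6 measured genes, 1 to 2 were above background on Treg arrays, with summed intensities of 1349.3 to 1576.5, and 1 to 3 on Tcon arrays, with sums of 1738.7 to 2143.7. Ncr1, Itga2 and Eomes were above background on no array, and Klrb1c was above background on all 8. Cd8a was above background on no array, whereas Cd8b1 was on all 8, at 2264.1 to 7407.2 units in Treg and 1094.1 to 9918 in Tcon. What part these cells have in the Klrd1 and Klrk1 signal was not tested.

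Of 13 listed ligand genes, 6 had a probe and 2 were tested, and 0 passed in any of the 3 comparisons. Cdh1, which encodes E-cadherin, the ligand of KLRG1, read 297.4 to 513.8 units in Treg and 314.4 to 908.6 in Tcon, and its difference was -0.86 ± 0.30 (SE, 4 pairs, limma adjusted p = 0.278). Cdh1 is also a gene of epithelium, and it was brightest on both gut Tcon arrays, with a gut minus spleen difference of 1.22 ± 0.33 (adjusted p = 0.117). The epithelial keratin gene Krt8 rose by 3.33 ± 0.48 in gut (adjusted p = 0.0461), and the part of epithelial RNA in the Cdh1 values was not tested. H2-T23, which encodes the MHC class I molecule that CD94 receptors bind, read 19881.1 to 27050.5 units in Treg and 15576.7 to 22958.1 in Tcon. Its difference was 0.34 ± 0.14 (adjusted p = 0.353).

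Of 14 listed signalling genes, 12 were tested, 4 were higher and 8 lower in Treg, the median was -0.09, and 0 passed. Hcst, the adaptor of NKG2D, read 14531 to 21933.8 units in Treg and 23454.8 to 36008.3 in Tcon, without overlap. Non-overlap with Treg below held for 3.2% of all genes. The Hcst difference was -0.68 ± 0.16 (SE, 4 pairs, limma adjusted p = 0.174). Tyrobp stood at -0.83 ± 0.34 (adjusted p = 0.341), the Fc receptor chain gene Fcer1g at -0.98 ± 0.34 (adjusted p = 0.277), and Pik3r1, the regulatory subunit of phosphoinositide kinase, at 0.99 ± 0.22 (adjusted p = 0.160). Between genotypes, Fcer1g stood at 3.06 ± 0.27 (adjusted p = 0.186) and Tyrobp at 2.23 ± 0.53 (adjusted p = 0.506), the 2 largest differences of the list. Both are also expressed by myeloid cells. Summed intensities of the 7 measured myeloid markers spanned 1676 to 9642.5 on K14 arrays and 1659.5 to 2867.9 on control arrays, and their part in these values was not tested.

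Of 17 listed genes of the killer program, 14 were tested, 4 higher and 10 lower in Treg, with a median of -0.64. By limma 1 passed, where 0.152% of all genes were called lower. Xcl1, a chemokine of NK cells and activated T cells, fell by 4.05 ± 0.43 in Treg (SE, 4 pairs, limma adjusted p = 0.0427). It read 308.8 to 1312.6 units in Treg and 2343.6 to 9673 in Tcon, the same direction as Klrd1. Between gut and spleen 4 passed, all higher in gut, with a median of 1.08 over the list. Of all genes, limma called 1.62% higher in gut. Ifng rose by 3.83 ± 0.42 (adjusted p = 0.0272), the chemokine Ccl4 by 3.66 ± 0.37 (adjusted p = 0.0245), the death ligand Fasl by 1.91 ± 0.26 (adjusted p = 0.0421) and the granule protein Nkg7 by 1.25 ± 0.19 (adjusted p = 0.0475). The receptors Klrg1 and Klrd1 themselves did not pass in that comparison.

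Of 16 listed transcription factors of killer and memory cells, 9 were tested, 4 higher and 5 lower in Treg, with a median of -0.01 and 0 passing by limma. Tbx21, which encodes T-bet, stood at -2.30 ± 0.28 (SE, 4 pairs, adjusted p = 0.0511), Nfil3 at 1.83 ± 0.52 (adjusted p = 0.209), Prdm1, which encodes Blimp1, at 0.94 ± 0.34 (adjusted p = 0.290) and Gata3 at 0.92 ± 0.16 (adjusted p = 0.109). Prdm1 was above background on 2 Treg and 0 Tcon arrays, so its value is no exact size. Between gut and spleen Nfil3 rose by 4.40 ± 0.52 (adjusted p = 0.0322) and Id3 fell by 2.10 ± 0.31 (adjusted p = 0.0461). Of all genes, limma called 1.62% higher and 0.758% lower in gut. Of 5 tested receptors of innate-like T cells, 1 was higher and 4 lower in Treg, with a median of -0.57 and 0 passing. Slamf7, above background on 0 Treg and 3 Tcon arrays, stood at -2.61 ± 0.73 (adjusted p = 0.208), Cd7 at -0.57 ± 0.39 and Il2rb, a chain of the interleukin 2 receptor, at 0.65 ± 0.38. Cd160 stood at -1.26 ± 0.22 between Treg and Tcon (adjusted p = 0.104), and rose by 1.49 ± 0.16 in gut (adjusted p = 0.0262).

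Of 17 listed genes of effector Treg, the subset in which Klrg1 is a known marker, 14 were tested, 13 were higher and 1 lower in Treg, and the median was 1.47. By limma 3 passed, all higher: Tnfrsf9 by 3.63 ± 0.38 (SE, 4 pairs, adjusted p = 0.0409), Ebi3, a cytokine subunit, by 3.79 ± 0.42 (adjusted p = 0.0477) and Tnfrsf18 by 2.08 ± 0.18 (adjusted p = 0.0405). Of all 7916 genes limma called 0.556% higher. The list was chosen with earlier results of these data known. With no array of effector Treg alone, its genes cannot tell that subset from Treg as a whole. Tnfrsf9 read 1293.3 to 4378.6 units in Treg and 307.5 to 428.5 in Tcon, and like Klrg1 its brightest array was gut K14 Treg. Between gut and spleen, Icos, Il10 and Rora passed, all higher in gut, whereas Klrg1 did not. In that comparison limma called 1.62% of all genes higher in gut. In none of these lists did a gene pass between genotypes. Over all genes, 46.6% were higher in Treg than in Tcon.

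**Figure D4:**
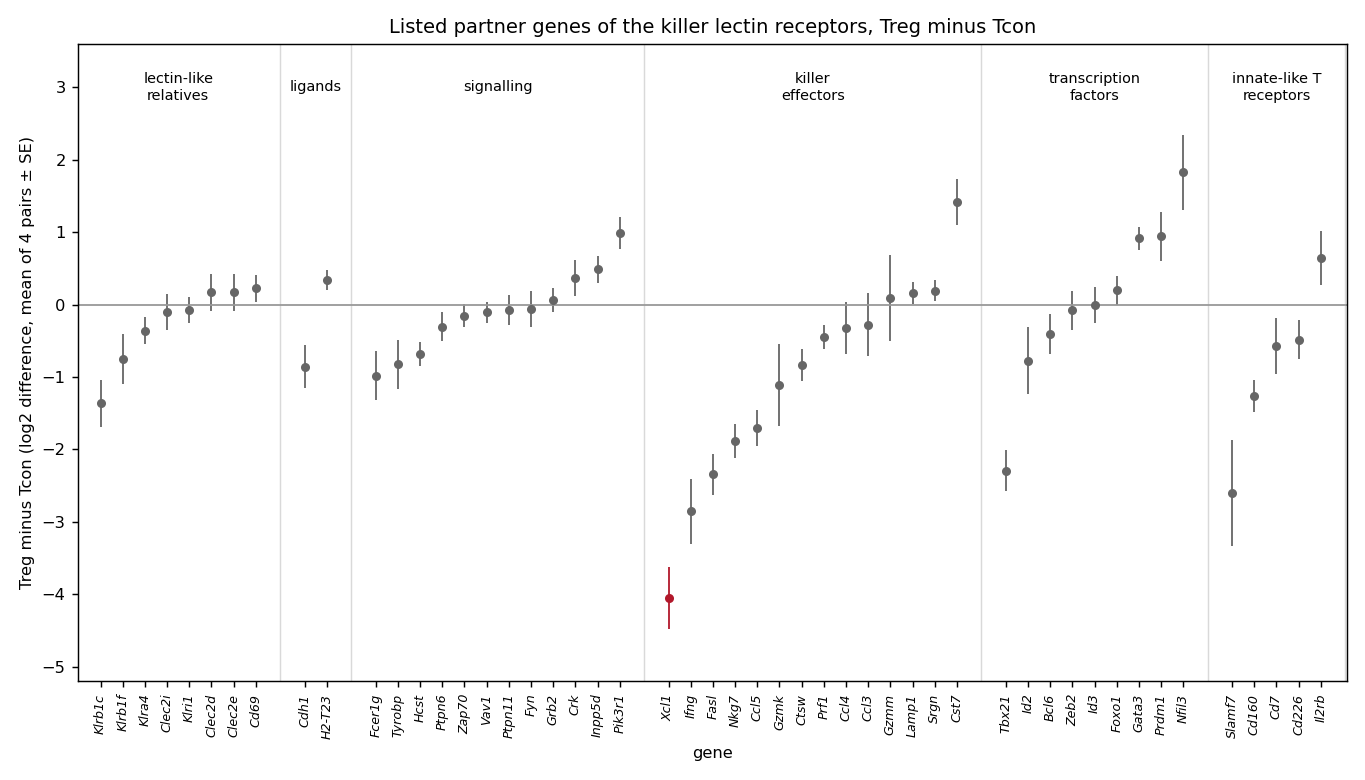
Treg minus Tcon log2 difference (y axis, mean of 4 pairs, bars give the SE) for the tested genes (x axis) of 6 lists: lectin-like relatives, ligands, signalling genes, killer effectors, transcription factors and innate-like T cell receptors. Xcl1, in red, is the gene past an adjusted p of 0.05, at -4.05, and the others, in grey, did not pass.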

How the data were processed

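RNA of 8 pools was measured on 8 Illumina mouse bead arrays. Per the file headers, the deposited table holds, for each array, probe intensities (linear) and their detection p-values. The authors also deposited log2 values (column medians 8.28 to 8.30), with a normalization not given in the sources used here, which served as an alternative.

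limma 3.58.1 in R 4.3.3 removed background by normexp, using the detection p-values (function nec). After adding an offset of 16, intensities were quantile-normalized between arrays and log2-transformed. Of 25697 probes, 23978 had 1 gene symbol in the platform table, 0 had several and 1719 had none here. Probes had to reach a detection p under 0.05 on at least 2 arrays. Each gene was represented by its probe of highest mean, which gave 7916 genes.

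Every fit used all 8 arrays, with the 4 matched pairs from the labels as blocks. Fits within a tissue or cell type left 2 residual degrees of freedom, and their SE was pooled over both tissues or both cell types. Every SE, interval and p-value of a difference used limma's moderated variance, which borrows from all genes. Genes were called by limma at a Benjamini-Hochberg adjusted p under 0.05, adjusted over the whole table. The procedure was tested on simulated data. Precision is limited by the number of arrays. For a bound, the dim side was set to the lowest signal above background on its arrays, or to the probe itself where higher.

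The receptors and the gene lists were chosen with earlier results of these data known. From each list, genes past the test in a comparison, and otherwise up to 4 with the largest differences, could be named. Those of Treg minus Tcon are given, and part of those of the other comparisons. For Klrg1 and Klrd1 it names the 5 genes most similar over the arrays. Alternative settings used the authors' values, skipped the background correction or the detection filter, centred on medians, raised the offset to 50, required detection on 4 arrays, fitted all probes, raised low readings, fitted additive terms, or left out each pair.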

Additional observations from a re-analysis of the deposited data

How the results depend on the processing

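Of 13 alternatives, the Treg minus Tcon call was lost in 5 for Klrg1 and in 8 for Klrd1, and no direction turned. With pairs left out, Klrg1 ran from 5.16 to 6.18 (adjusted p 0.112 to 0.181) and Klrd1 from -4.60 to -3.78 (adjusted p 0.121 to 0.227). Without the detection filter, which brought the genes tested to 16593, Klrg1 was 5.55 (adjusted p = 0.0763) and Klrd1 -4.15 (adjusted p = 0.0952). Klrd1 was -2.44 with the authors' values (adjusted p = 0.0638), -4.15 with all probes fitted (adjusted p = 0.0506) and -3.67 with low readings raised (adjusted p = 0.0786). The 56 genes called became 100 with the authors' values (63 higher, against 44 of 56), 106 without background correction (73 higher), 110 with additive terms (77 higher), 2 without the filter and 0 to 0 with a pair left out by limma, where 918 to 1078 had an unadjusted p under 0.05. The cause of these changes was not tested.

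The 188 genes called between gut and spleen became 468 with the authors' values, 393 without background correction, 288 with an offset of 50, 125 without the filter, 322 with detection on at least 4 arrays, 287 with low readings raised, 462 with additive terms and 0 to 33 with a pair left out. No setting called a gene between genotypes.

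Directions of small differences turned. Klrk1, K14 minus control, ran from -0.0370 to 0.89 with a pair left out, and within Treg from -0.0720 to 0.22. Within Tcon, K14 minus control ran from -0.69 to 1.70 for Klrg1, -0.29 to 3.09 for Klrd1 and -0.26 to 2.53 for Klrk1, the lowest in each case without the gut Tcon pair. Gut minus spleen in Tcon ran from -1.58 to 0.81 for Klrg1, -2.58 to 0.79 for Klrd1 and -2.29 to 0.50 for Klrk1. The contrast between tissues of Treg minus Tcon for Klrd1 was 0.23 with the authors' values, 0.0495 without background correction and 0.0880 with low readings raised, and ran from -1.55 to 0.81 with a pair left out, and from -0.91 to 1.69 for Klrk1. The contrast between cell types of K14 minus control for Klrd1 was -0.60 with the authors' values, -0.36 without background correction, -0.11 with an offset of 50 and -0.66 with low readings raised. With a pair left out it ran from -1.42 to 1.95 for Klrd1, -0.46 to 1.93 for Klrg1 and -2.45 to 0.34 for Klrk1. Klrk1 gave no value with detection on at least 4 arrays. Dim readings near background, 3 of 4 for Klrd1 and 4 of 4 for Klrk1 in Treg, limit how large these differences can be measured. Each combination was 1 array. Replicate numbers in the sample titles coincide with genotype, so they give no pairing beyond the matched pairs. The matched pairs were blocks in every fit but the additive one.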
